A study of Mus musculus with 12 samples.

Results

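The cAMP-dependent protein kinase (PKA) subunit genes and Gkap1 were followed through late spermatid development. The genes were Prkaca and Prkacb, which encode catalytic subunits, Prkar1a and Prkar1b, which encode type I regulatory subunits, Prkar2a and Prkar2b, which encode type II regulatory subunits, and Gkap1, which encodes an anchoring protein of the cGMP-dependent kinase. A contig is 1 reference transcript to which reads were assigned. Every contig in the count table that carried the symbol of 1 of these 7 genes was taken, with no further choice on its counts. This gave 5 contigs of 12114, from 4 of the 7 genes. Prkaca, Prkar2a and Gkap1 had 1 contig each and Prkar1a had 2. Prkacb, Prkar1b and Prkar2b had 0 contigs in the table and are not analysed here. All 5 contigs were among the 11831 that had enough reads to be tested.

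Poly(A) RNA was read directly on nanopores, so that 1 read comes from 1 RNA molecule. Cells came from testes of adult male mice that were either Tent5c wt/wt or Tent5c dcat/dcat. Round spermatids (RS) and elongated spermatids (ES) were sorted from each genotype by Hoechst fluorescence and light scatter, which made 4 groups of 3 libraries. The dcat allele leaves TENT5C, a cytoplasmic poly(A) polymerase, without catalytic activity in every cell of the animal, and the wt/wt males carried the normal allele. Each library held RNA pooled from 3 mice, so the p-values below measure the spread between pools and not between single animals.

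PKA is held inactive by its regulatory subunits, and binding of cAMP to these frees the catalytic subunits to phosphorylate their targets. Type I holoenzymes are mostly soluble, whereas type II holoenzymes are mostly tethered by A-kinase anchoring proteins (AKAPs). In sperm, soluble adenylyl cyclase makes the cAMP that starts motility and capacitation, and AKAPs of the flagellum hold PKA along the fibrous sheath.

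The 5 contigs were placed on build GRCm38, and all are spliced protein-coding transcripts. Prkaca ENSMUST00000005606 lies on the plus strand of chr8:83972993-83996443 with 10 exons. It was assigned 519 reads over all libraries. A second annotated Prkaca transcript, ENSMUST00000211558, starts 3890 bases away and shares 8 exons with it, but has no contig of its own here, so the 2 forms cannot be told apart. Prkar2a ENSMUST00000035220 lies on the plus strand of chr9:108692143-108750436 with 11 exons and was assigned 2114 reads. Gkap1 ENSMUST00000091579 lies on the minus strand of chr13:58233346-58274188 with 12 exons and was assigned 8268 reads. It overlaps the antisense gene Gm48441 by 37 exonic bases, and Gm48441 has no contig in the table.

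Both Prkar1a contigs end at the same base of chromosome 11 and carry the same coding blocks. ENSMUST00000049527 spans chr11:109650921-109669656 on the plus strand with 11 exons. ENSMUST00000106677 spans chr11:109649405-109669656 with 12 exons, and its start lies 1516 bases upstream. They share 10 exons and 3206 bases, which is 95.4% of the first and 91.3% of the second. Nanopore reads start at the poly(A) tail, so a read that stops before the first exons fits both contigs equally well, and the split of Prkar1a reads between them is uncertain.

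The 250 bases upstream of the RefSeq starts nearest to the contigs were read from RefSeq on build GRCm38.p6. They are shown because the contigs of regulatory subunits moved in opposite directions between stages and because the 2 Prkar1a contigs start in different DNA. Capitals mark the cAMP response element TGACGTCA and its core TGACG, on either strand. The core lies inside the full element. The Prkar1a windows lie at chr11:109650699-109650948 and chr11:109649113-109649362, and the Prkar2a window at chr9:108691893-108692142, all on the plus strand. The RefSeq start minus the contig start was 28 bases for ENSMUST00000049527, -42 for ENSMUST00000106677 and 0 for Prkar2a. The last 28 bases of the ENSMUST00000049527 window therefore lie inside that contig.
Prkar1a ENSMUST00000049527: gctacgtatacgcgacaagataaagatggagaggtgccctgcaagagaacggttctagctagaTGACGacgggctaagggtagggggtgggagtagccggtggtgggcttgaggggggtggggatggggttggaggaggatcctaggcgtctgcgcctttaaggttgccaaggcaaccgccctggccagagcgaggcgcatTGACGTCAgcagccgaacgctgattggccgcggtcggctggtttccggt
Prkar1a ENSMUST00000106677: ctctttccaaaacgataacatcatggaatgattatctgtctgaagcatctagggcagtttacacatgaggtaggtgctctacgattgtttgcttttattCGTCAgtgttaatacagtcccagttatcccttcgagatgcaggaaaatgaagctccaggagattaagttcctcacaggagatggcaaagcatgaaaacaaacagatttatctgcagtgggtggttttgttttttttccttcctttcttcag
Prkar2a ENSMUST00000035220: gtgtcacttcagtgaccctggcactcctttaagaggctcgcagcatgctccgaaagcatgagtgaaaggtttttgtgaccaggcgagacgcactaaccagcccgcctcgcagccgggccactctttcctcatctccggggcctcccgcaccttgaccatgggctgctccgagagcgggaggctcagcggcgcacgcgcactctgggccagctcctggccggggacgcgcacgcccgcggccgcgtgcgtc
The full element was in the window of Prkar1a ENSMUST00000049527, 49 bases before the RefSeq start, and was in none of the other windows of the member contigs. Of all 32851 RefSeq windows of this length, 1.55% held it. The core was in both Prkar1a windows and in the Prkaca window at chr8:83972728-83972977, and 17.8% of all windows held it. The CCAAT motif was in the windows of Prkaca and of Prkar1a ENSMUST00000049527, and in 33.8% of all windows. The Prkar2a window held none of the 3 motifs. Gkap1 had no window among the RefSeq sequences used, so its upstream bases were not read for any motif. A match describes the letters only and shows no binding.

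Library totals ran from 337287 to 1359427 reads, and the shallowest library was ES wt/wt replicate 3. Counts were scaled with TMM, which sets libraries to a common level for the bulk of contigs, and are given as CPM, reads scaled to a common library total, on that scale. A floor of 3 reads corresponded to 1.77 to 10.6 CPM in a library. Tent5c itself was read in all 4 groups, at 239 to 404 CPM in RS libraries and 809 to 1114 CPM in ES libraries, and its q between genotypes was 0.999951 in RS and 0.999967 in ES. The dcat allele changes the protein and not the presence of the transcript, so this does not test the labels. Summed elongated spermatid markers (Prm1, Tnp1, Odf1 and others, 12 contigs) ran from 19407 to 41878 CPM in RS and from 211515 to 281858 CPM in ES, so that the libraries labelled ES were the higher ones throughout. Summed round spermatid markers (10 contigs) ran from 1419 to 1604 CPM in RS and from 779 to 881 CPM in ES.

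The first comparison asked how the transcripts of PKA subunits and Gkap1 change as round spermatids become elongated spermatids. In wt/wt cells Prkar2a rose 7.60-fold, both Prkar1a contigs fell, Gkap1 fell 2.55-fold, and Prkaca was lower without passing the test. In dcat/dcat cells Prkar2a rose 6.52-fold and the other 4 contigs fell. Changes were tested with edgeR's quasi-likelihood test with Benjamini-Hochberg adjustment over all contigs tested, and the adjusted p is written q. A contig was called at a q at or under 0.05. In wt/wt, 1 of the 5 contigs was called higher and 3 lower, where 23.8% of all tested contigs were called higher and 16.5% lower. In dcat/dcat, 1 was called higher and 4 lower, against 24% and 16.9% of all. RS and ES did not overlap for any of the 5 contigs in either genotype, which was so for 53.3% of all tested contigs in wt/wt and 50.9% in dcat/dcat. In sorted bulk cells, fewer cells of a type and less RNA per cell cannot be told apart.

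**Figure D1:**
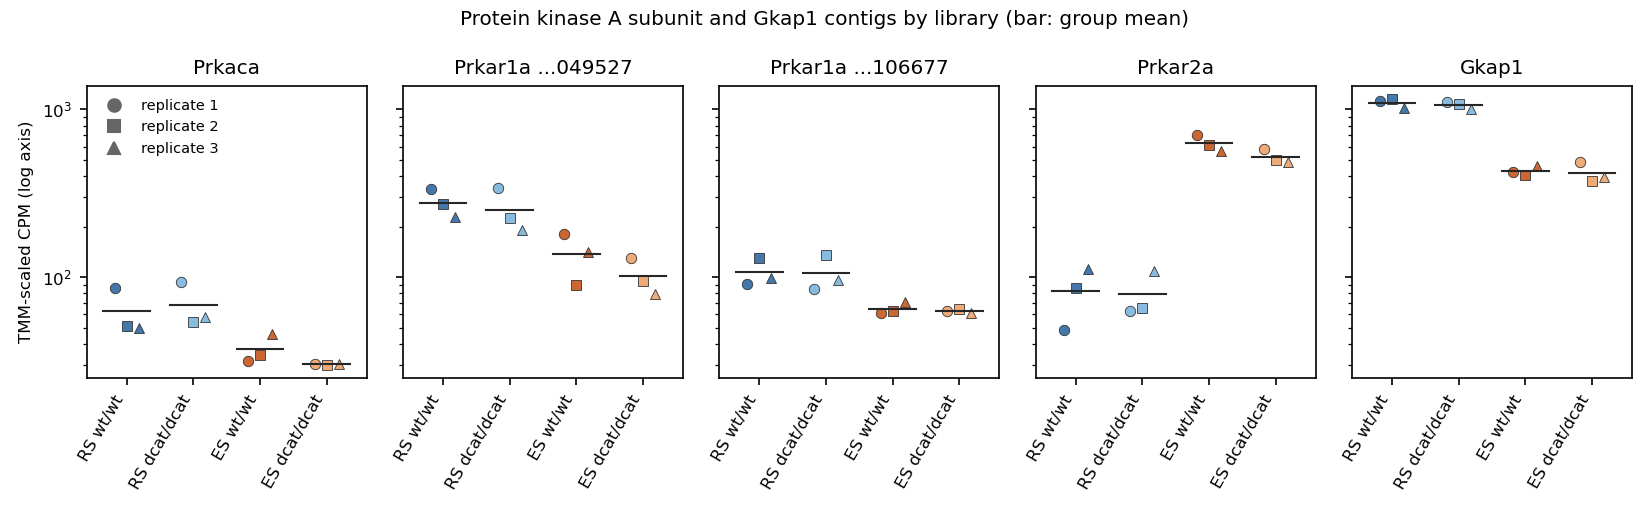
TMM-scaled CPM on a log axis for the 5 contigs in each of the 12 libraries, with symbols for the replicate number and a bar at each group mean. Prkar2a stands at 485 CPM or more in every ES library and at 112 CPM or less in every RS library, whereas the other 4 contigs are lower in ES than in RS in both genotypes.

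Prkaca encodes the catalytic subunit Cα, which includes the form specific to sperm. Its level was 86.4, 51.2 and 49.7 CPM in RS wt/wt replicates 1 to 3 and 94.0, 53.8 and 57.7 CPM in RS dcat/dcat. It was 31.7, 34.2 and 45.9 CPM in ES wt/wt and 30.1, 30.0 and 30.4 CPM in ES dcat/dcat. Replicate 1 was the highest RS library in both genotypes, and every ES library was below every RS library. In wt/wt the change from RS to ES was -0.77 ± 0.31 (log2, SE) with an edgeR q of 0.0625, which did not pass the threshold. In dcat/dcat it was -1.18 ± 0.32 with an edgeR q of 0.00821. ES libraries held 12 to 18 Prkaca reads each, and 12 reads have an exact 95% Poisson interval of 6.20 to 21.0 reads. The ES dcat/dcat values (SD of 0.217 CPM) thus lay closer together than the counting error of each one. Their closeness is not a measure of precision. Of 15 alternatives, 5 made the wt/wt call. These were the replicate number as a block (-0.77, edgeR q 0.0155), that block within each stage (-0.72, edgeR q 0.00888) and total-count scaling (-1.49, edgeR q 0.00172). They also included only contigs of at least 10 reads in every library (-1.10, edgeR q 0.00701) and leaving out RS wt/wt replicate 3 (-0.95, edgeR q 0.0397). The other 10 did not make the call. Among those were DESeq2 (-0.74, DESeq2 q 0.118) and sums by gene (-0.67, edgeR q 0.0568). Another was leaving out RS wt/wt replicate 1, the highest RS wt/wt library (-0.48, edgeR q 0.243).

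Prkar1a encodes RIα, the main type I regulatory subunit, which holds free catalytic subunits inactive in most tissues. Its more abundant contig, ENSMUST00000049527, stood at 333, 272 and 228 CPM in RS wt/wt replicates 1 to 3 and at 341, 224 and 190 CPM in RS dcat/dcat. It stood at 180, 89.4 and 141 CPM in ES wt/wt and at 130, 94.9 and 79.4 CPM in ES dcat/dcat. As for Prkaca, replicate 1 was the highest RS library in both genotypes. The contig fell by 1.03 ± 0.29 (log2, SE) in wt/wt (edgeR q 0.0106) and by 1.32 ± 0.29 in dcat/dcat (edgeR q 0.00235). Without ES wt/wt replicate 2, the lowest ES wt/wt library, the wt/wt change was -0.70 with an edgeR q of 0.113.

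The second Prkar1a contig, ENSMUST00000106677, was at 91.4, 130 and 98.8 CPM in RS wt/wt and at 85.5, 136 and 96.4 CPM in RS dcat/dcat. It was at 61.3, 62.8 and 70.6 CPM in ES wt/wt and at 62.6, 64.9 and 60.8 CPM in ES dcat/dcat. Here replicate 2 was the highest RS library in both genotypes, and the ES libraries lay close together. The contig fell by 0.72 ± 0.23 in wt/wt (edgeR q 0.0239) and by 0.75 ± 0.23 in dcat/dcat (edgeR q 0.0183). The wt/wt call was lost without RS wt/wt replicate 2 (-0.56, edgeR q 0.0968), without ES wt/wt replicate 1 (-0.60, edgeR q 0.121) and without ES wt/wt replicate 2 (-0.62, edgeR q 0.116), and the dcat/dcat call without RS dcat/dcat replicate 2 (-0.54, edgeR q 0.0874) and without ES dcat/dcat replicate 3 (-0.69, edgeR q 0.0719). With reads of both contigs summed, Prkar1a fell by 0.83 in wt/wt (edgeR q 0.000913) and by 1.01 in dcat/dcat (edgeR q 0.000144).

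The share of Prkar1a reads on ENSMUST00000049527 described whether the 2 starts were used alike. It was 72.0% ± 5.73 (SD, n = 3) in RS wt/wt, 69.5% ± 9.29 in RS dcat/dcat, 66.7% ± 7.91 in ES wt/wt and 61.2% ± 5.64 in ES dcat/dcat. Single libraries ran from 56.6% (95% Wilson interval 45.9 to 66.8) in ES dcat/dcat replicate 3 to 79.9% (75.7 to 83.6) in RS dcat/dcat replicate 1. The difference, ES minus RS, was -6.83 percentage points, and the stages overlapped in both genotypes. The exact two-sided permutation test, with stage labels permuted within genotype, gave p = 0.135 (q = 0.405 over the 9 tests of shares and ratios). ES was lower in 6 of 6 same-numbered pairs of libraries. Flipping the signs of those pairs gave an exact two-sided permutation p of 0.03125, the smallest that 6 pairs allow (q = 0.0625 over the 6 paired tests). This p treats the wt/wt libraries as paired, although the stages of replicate 3 correlated at -0.09 there, so that pairing is not established. Since most Prkar1a bases are common to both contigs, this share carries the assignment error named above.

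Prkar2a encodes RIIα, the type II regulatory subunit whose docking domain binds AKAPs. It was at 48.2, 85.8 and 112 CPM in RS wt/wt replicates 1 to 3 and at 63.0, 65.6 and 109 CPM in RS dcat/dcat. It was at 706, 613 and 565 CPM in ES wt/wt and at 582, 497 and 485 CPM in ES dcat/dcat. The lowest ES library was therefore far above the highest RS library. Prkar2a rose by 2.93 ± 0.28 (log2, SE) in wt/wt (edgeR q 2.9e-06) and by 2.70 ± 0.28 in dcat/dcat (edgeR q 6.7e-06). Among all tested contigs ordered by this change, it stood at percentile 97.0 in wt/wt and 95.4 in dcat/dcat. In both genotypes RS replicate 3 was the highest RS library for Prkar2a and replicate 1 the lowest, and the summed elongated spermatid markers had the same order, at 19407, 34519 and 41878 CPM in RS wt/wt replicates 1 to 3 and 23658, 34829 and 41523 CPM in RS dcat/dcat. The part of this in the Prkar2a levels of RS was not tested.

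Gkap1 encodes G kinase anchoring protein 1, a protein known from male germ cells that binds cGMP-dependent protein kinase I. It was at 1124, 1149 and 1018 CPM in RS wt/wt and at 1113, 1079 and 1012 CPM in RS dcat/dcat. It was at 423, 409 and 459 CPM in ES wt/wt and at 485, 372 and 393 CPM in ES dcat/dcat. The libraries of each group lay close together and the stages were far apart. Gkap1 fell by 1.35 ± 0.15 (log2, SE) in wt/wt (edgeR q 6.1e-06) and by 1.36 ± 0.14 in dcat/dcat (edgeR q 7.8e-06), at percentiles 7.88 and 7.97 of all tested contigs. Of the 5 contigs it had the most reads, with 130 to 1722 in a library.

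**Figure D2:**
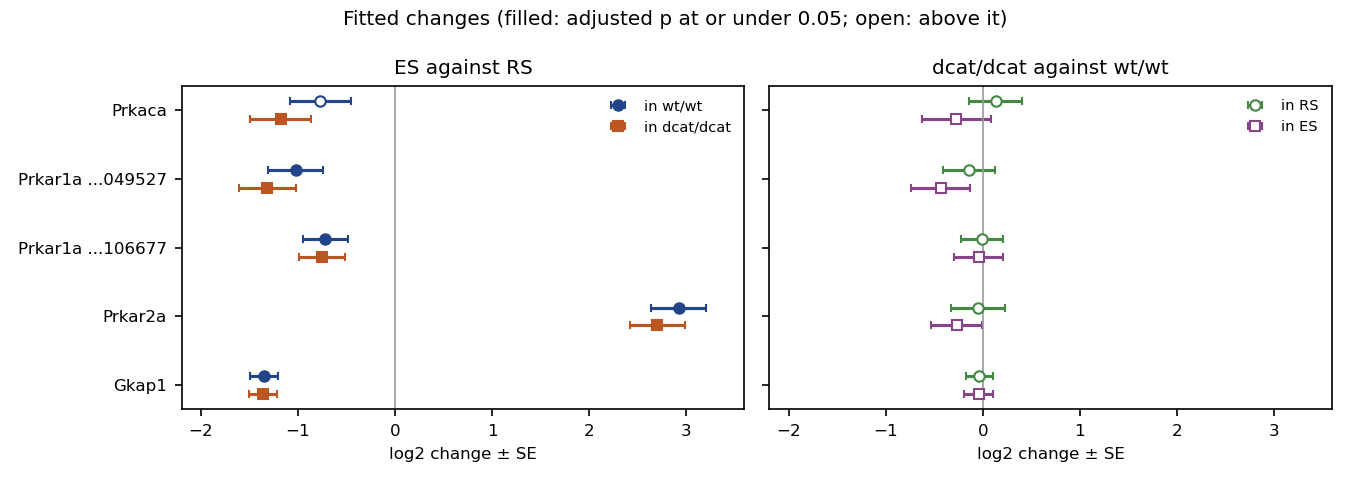
Fitted log2 change with its SE for each of the 5 contigs, ES against RS on the left and dcat/dcat against wt/wt on the right. Filled symbols passed an adjusted p of 0.05. Prkar2a lies near 2.93 and 2.70 on the left, the other contigs lie below 0, and all symbols on the right are open.

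These changes are relative to the bulk of contigs. The median change of all tested contigs was -0.24 in wt/wt and -0.18 in dcat/dcat on the TMM scale. With library totals in place of TMM, this median moved by -0.71 in wt/wt and -0.66 in dcat/dcat. Prkar2a then rose by 2.22 and 2.03, Gkap1 fell by 2.06 and 2.04, and the Prkar1a and Prkaca contigs were lower in both genotypes, so that no direction turned. Markers of somatic testis cells were also higher in ES. The summed Leydig cell markers (7 contigs) ran from 15.0 to 45.5 CPM in RS and from 255 to 1015 CPM in ES, with 7 contigs called higher in each genotype, while the defining genes Star, Hsd3b1, Hsd3b6, Hsd17b3, Lhcgr and Nr5a1 had no contig. Summed Sertoli cell markers (7 contigs, 6 called higher) ran from 17.1 to 48.5 CPM in RS and from 201 to 397 CPM in ES, while Sox9, Wt1, Amh, Rhox5, Inha and Gata4 had no contig. C1qb, the only macrophage marker with a contig, ran from 3.21 to 8.28 CPM in RS and from 35.3 to 62.8 CPM in ES. Summed meiotic markers (22 contigs) ran from 1118 to 1237 CPM in RS and from 1135 to 1340 CPM in ES. Single meiotic contigs moved both ways, with 5 called higher and 5 lower in wt/wt, and 4 higher and 2 lower in dcat/dcat. The part of these cells in the changes of the subunit genes was not tested.

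Shares of reads within a library do not depend on how libraries are scaled. Among the reads of regulatory subunits, the type II share was higher in every ES library than in any RS library, in both genotypes. Prkar2a took 10.2%, 17.6% and 25.6% of Prkar1a and Prkar2a reads in RS wt/wt replicates 1 to 3, and 12.9%, 15.4% and 27.5% in RS dcat/dcat. The ES values were 74.6%, 80.1% and 72.7% in wt/wt libraries against 75.1%, 75.7% and 77.6% in dcat/dcat libraries. Replicate 3 was the highest and replicate 1 the lowest RS library in both genotypes, and the lowest ES library was far above the highest RS library. The 95% Wilson interval of that ES library, from 220 reads, was 66.5 to 78.2%, and that of the RS library, from 480 reads, was 23.7 to 31.7%. Such intervals cover counting error only. The mean share was higher in ES by 58.0 percentage points in wt/wt and by 57.5 in dcat/dcat. Over both genotypes the difference was 57.8 points. The exact two-sided permutation p was 0.005, the smallest that the 400 arrangements allow (q = 0.0225 over the 9 tests). ES was higher in 6 of 6 same-numbered pairs of libraries. Flipping the signs of those pairs gave an exact two-sided permutation p of 0.03125, the smallest possible (q = 0.0625 over the 6 paired tests). As for the Prkar1a contig share, this pairing is not established. The shares are of reads after poly(A) selection and assignment to contigs. Their change between stages is read here, and their absolute size as shares of RNA molecules is not.

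**Figure D3:**
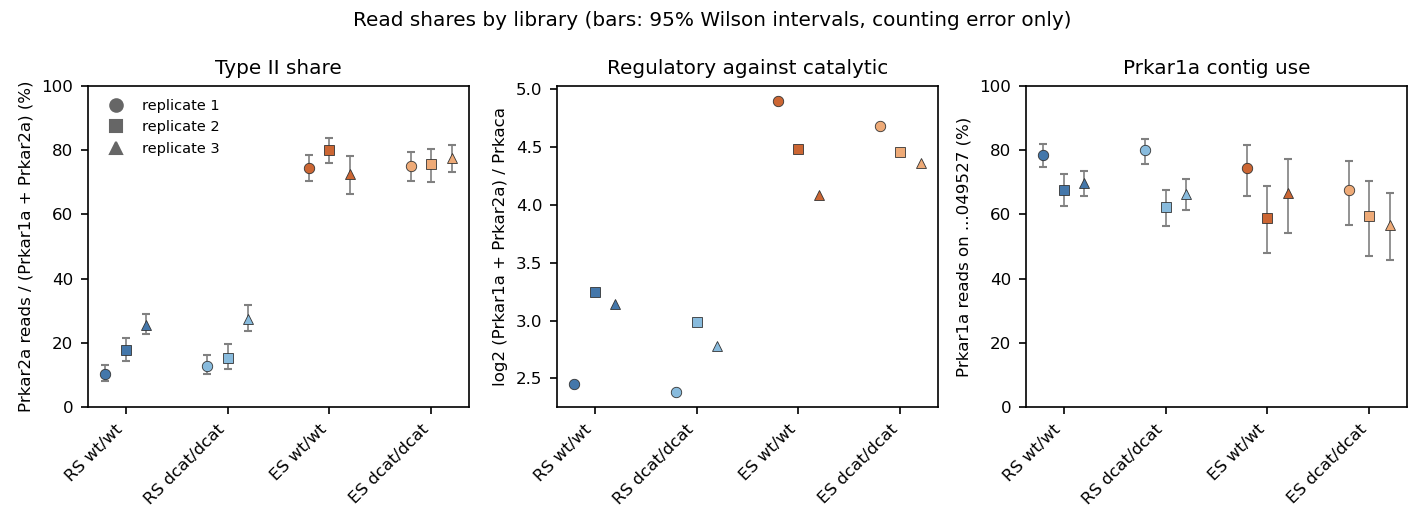
Read shares in each of the 12 libraries, with 95% Wilson intervals where the value is a share. On the left, the type II share of regulatory subunit reads is 10.2 to 27.5% in RS and 72.7 to 80.1% in ES. In the middle, the log2 ratio of regulatory to catalytic reads is higher in every ES library. On the right, the share of Prkar1a reads on ENSMUST00000049527 overlaps between stages.

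The sum of Prkar1a and Prkar2a reads gained on Prkaca reads. The log2 ratio of Prkar1a and Prkar2a reads to Prkaca reads was 2.45, 3.25 and 3.14 in RS wt/wt replicates 1 to 3 and 2.38, 2.99 and 2.78 in RS dcat/dcat. The ES values were 4.90, 4.48 and 4.08 for wt/wt replicates against 4.68, 4.45 and 4.36 for dcat/dcat replicates. Every ES library was above every RS library. The ratio was higher in ES by 1.66 on the log2 scale, by 1.54 in wt/wt and 1.78 in dcat/dcat. The exact two-sided permutation p was 0.005, the smallest possible (q = 0.0225). The ratio was higher in ES in 6 of 6 same-numbered pairs. Flipping their signs gave an exact two-sided permutation p of 0.03125, the smallest possible (q = 0.0625 over the 6 paired tests). Of the genes in this ratio only Prkar2a rose, so the gain is not independent of the rise in the type II share. With counts summed by gene, Prkar1a changed by -0.83 (log2) in wt/wt and -1.01 in dcat/dcat, and Prkaca by -0.67 and -1.06. A ratio of Prkar1a reads alone to Prkaca reads was not tested. Prkaca reads of 12 to 18 per ES library limit the precision of the summed ratio.

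The second comparison asked whether the loss of TENT5C catalytic activity changed these transcripts. None of the 5 contigs was called between genotypes in either stage by edgeR's quasi-likelihood test, where 0% of all tested contigs were called in RS and 0% in ES. In RS the change in dcat/dcat was 0.13 ± 0.28 (log2, SE) for Prkaca, -0.14 ± 0.27 and -0.01 ± 0.21 for the Prkar1a contigs ENSMUST00000049527 and ENSMUST00000106677, -0.05 ± 0.28 for Prkar2a and -0.04 ± 0.14 for Gkap1. The genotypes overlapped for all 5 contigs in RS, while 5.31% of all tested contigs did not overlap. In ES the change was -0.27 ± 0.35 for Prkaca, -0.43 ± 0.31 and -0.04 ± 0.25 for the same Prkar1a contigs, -0.27 ± 0.26 for Prkar2a and -0.04 ± 0.15 for Gkap1. Only Prkaca did not overlap between genotypes in ES, with 3 lower dcat/dcat libraries at 12 to 18 reads, and 7.66% of all tested contigs did not overlap there. In this fit, which has no block, the unadjusted p of the members was 0.177 or higher in both stages. Of all contigs, 98 in RS and 356 in ES had an unadjusted p under 0.05. DESeq2 called 0 contigs in RS and 1 in ES, and 0 of them were members. With the replicate number as a block in the RS comparison, where the numbers were taken to pair libraries, 3 of all contigs were called and 0 members, and in ES 1 and 0. With that block within each stage, the ES change was -0.27 ± 0.12 for Prkar2a (edgeR unadjusted p 0.0259, q 0.507). It was -0.42 ± 0.19 for Prkar1a ENSMUST00000049527 (edgeR unadjusted p 0.0332, q 0.528). The other members had an unadjusted p of 0.358 or higher in ES. Same-numbered ES libraries of replicate 3 correlated at 0.03 between genotypes, so pairing is not established there. With SEs of 0.14 to 0.35 without a block, these tests do not show that the genotypes were alike.

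The stage by genotype interaction, which tests whether the step from RS to ES differed between genotypes, was called for none of the 5 contigs and for 0% of all tested contigs by edgeR's quasi-likelihood test (170 had an unadjusted p under 0.05). It was -0.41 ± 0.45 for Prkaca, -0.29 ± 0.41 and -0.03 ± 0.33 for Prkar1a ENSMUST00000049527 and ENSMUST00000106677, -0.22 ± 0.38 for Prkar2a and -0.01 ± 0.20 for Gkap1. Prkaca passed the stage test in dcat/dcat alone, and its interaction had an unadjusted p of 0.380, so a difference between the genotypes was not shown. The genotypes differed in the type II share by 0.57 percentage points (exact permutation p = 0.815), in the log2 ratio of regulatory to catalytic reads by -0.11 (exact permutation p = 0.565) and in the Prkar1a contig share by -3.99 points (exact permutation p = 0.34). The interactions of these 3 quantities gave exact permutation p = 0.96, 0.525 and 0.725.

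The other genes of the pathway were read from 5 lists in the same fit, beside the members. None of their contigs was called between genotypes or in the interaction. The stage counts below are to be read against 23.8% of all contigs called higher and 16.5% called lower in wt/wt, with 24% called higher and 16.9% lower in dcat/dcat.

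A-kinase anchoring proteins and proteins with an RIIa docking domain had 32 tested contigs from 15 of 24 genes listed. Of these, 15 were called higher and 1 lower in wt/wt, and 16 higher and 5 lower in dcat/dcat. The higher calls came from fewer genes than contigs. Akap12, Akap1, Akap3, Akap4 and Ropn1 each had more than 1 contig called higher in both genotypes. Akap12, Akap3 and Ropn1 are named here after their values were seen. Contigs of the same gene can share sequence, so reads may be split among them with error. The median change was 1.23 in wt/wt and 1.32 in dcat/dcat, beside -0.24 and -0.18 over all contigs. Akap4, the main scaffold of the fibrous sheath, which was also in the elongated spermatid marker list, went from 191 ± 24.2 to 1714 ± 104 CPM (SD, n = 3) in wt/wt on contig ENSMUST00000057101. Its rise was 3.16 ± 0.16 (log2, SE) in wt/wt (edgeR q 4.7e-08) and 2.88 ± 0.15 in dcat/dcat (edgeR q 1.5e-07). Akap1, which tethers PKA to the outer mitochondrial membrane, rose by 2.51 ± 0.24 and 2.59 ± 0.24 on ENSMUST00000143720 (edgeR q 2.8e-06 and 3.5e-06). Cabyr, a calcium-binding protein of the fibrous sheath, rose by 2.69 ± 0.22 and 2.51 ± 0.22 on ENSMUST00000115857 (edgeR q 1.7e-06 and 3.1e-06). Its contig with the most reads, ENSMUST00000121018, went the other way and is named here after its value was seen, with -0.89 ± 0.38 in wt/wt (edgeR q 0.0778, not called) and -1.17 ± 0.39 in dcat/dcat (edgeR q 0.0270, called lower). The other Cabyr contigs were not called, nor was 1 contig each of Akap4 and Akap1. With total-count scaling, 15 contigs of the list were called higher and 8 lower in wt/wt, with 14 higher and 8 lower in dcat/dcat, where 16.5% and 16.6% of all contigs were called higher and 45.7% and 42.2% lower. With the replicate number as a block, 18 were called higher and 4 lower in wt/wt, and without ES wt/wt replicate 3 it was 15 and 2, so the count of lower calls on this list depends on the scaling, the block and that library.

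The heat-stable inhibitors of PKA, which block the free catalytic subunit, had 9 tested contigs from 2 of 3 genes listed. In each genotype 6 contigs were called higher and 0 lower, all of them contigs of Pkib, and the median change was 2.45 in wt/wt and 2.65 in dcat/dcat. Pkib ENSMUST00000177325 went from 108 ± 44.7 to 748 ± 147 CPM in wt/wt and from 116 ± 37.5 to 781 ± 56.8 CPM in dcat/dcat. It rose by 2.79 ± 0.30 and 2.74 ± 0.30 on the log2 scale (edgeR q 6.0e-06 and 9.0e-06). The 3 Pkig contigs were not called, with log2 values of 0.10 to 0.49 in wt/wt and 0.05 to 0.76 in dcat/dcat. The contigs of Pkib share sequence, so reads may be split among them with error.

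Genes of cAMP synthesis and breakdown had 15 tested contigs from 7 of 26 genes listed and moved both ways. In wt/wt 5 were called higher and 3 lower, and in dcat/dcat 5 higher and 5 lower, with medians of -0.04 and -0.10. Adcy10, the soluble adenylyl cyclase that makes cAMP in sperm, rose by 1.05 ± 0.33 in wt/wt and 1.15 ± 0.33 in dcat/dcat on ENSMUST00000111440 (edgeR q 0.0192 and 0.0126), while 2 of its 5 tested contigs were not called in either genotype. The phosphodiesterase Pde1a rose by 1.77 ± 0.48 and 1.92 ± 0.48 on ENSMUST00000090756 (edgeR q 0.00830 and 0.00531). Pde8a, a phosphodiesterase specific to cAMP, fell, with log2 changes of -0.80 ± 0.21 and -0.95 ± 0.21 on ENSMUST00000026672 (edgeR q 0.00819 and 0.00266). With total-count scaling the list had 1 contig called higher and 6 lower in wt/wt, with 2 higher and 7 lower in dcat/dcat. Without ES wt/wt replicate 3, the shallowest library, 2 were called higher and 3 lower in wt/wt.

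Other effectors of cAMP and the nuclear factors that PKA phosphorylates had 5 tested contigs from 3 of 13 genes listed, with 0 called higher and 3 lower in each genotype. Crem, a transcription factor of round spermatids, fell on ENSMUST00000144496, with log2 changes of -1.19 ± 0.33 in wt/wt and -1.75 ± 0.33 in dcat/dcat (edgeR q 0.00893 and 0.000706). On ENSMUST00000122958 its changes were -0.79 ± 0.24 and -0.82 ± 0.23 (edgeR q 0.0150 and 0.0118). The Crem contig with the most reads, ENSMUST00000150235, is named here after its value was seen. It was not called in either genotype, at -0.49 ± 0.25 and -0.43 ± 0.25 (edgeR q 0.136 and 0.182). Slc9c1, a sperm sodium/proton exchanger with a cyclic nucleotide binding domain, fell, with changes of -1.05 ± 0.27 and -1.05 ± 0.26 (edgeR q 0.00586 and 0.00564). Without ES wt/wt replicate 3, 2 contigs of this list were called lower in wt/wt. The kinases and cyclases of cGMP, among them the partners of Gkap1, had 4 tested contigs from 2 of 10 genes listed. In wt/wt 0 of them were called, and in dcat/dcat 1 was called lower, the Prkg1 contig ENSMUST00000183135 (-1.01 ± 0.33, edgeR q 0.0231), named here after its value was seen. With total-count scaling, 2 contigs of the cGMP list were called lower in wt/wt and 3 in dcat/dcat.

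**Figure D4:**
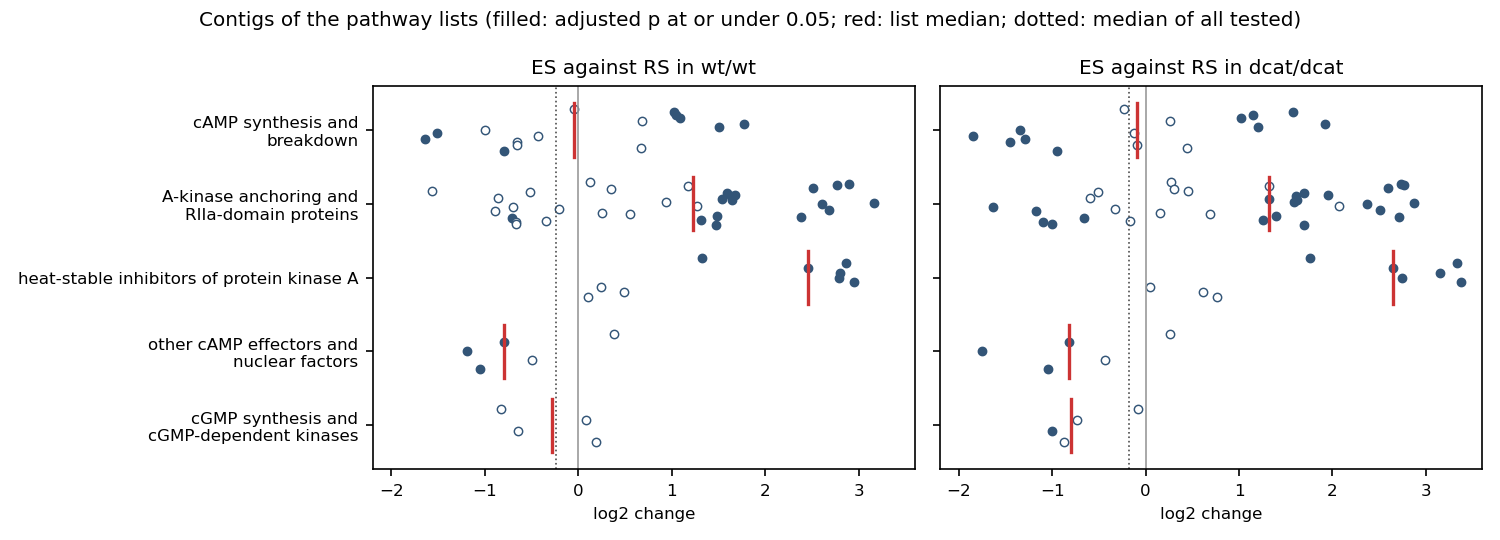
Log2 change from RS to ES of every tested contig of the 5 pathway lists, wt/wt on the left and dcat/dcat on the right. Filled symbols passed an adjusted p of 0.05, red bars mark list medians and the dotted line the median of all tested contigs. Contigs of the anchoring and inhibitor lists extend to 3.16 and 2.95 in wt/wt.

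The transcripts whose pattern was most like that of a member were found by Pearson's r of log2 CPM over the 12 libraries, among contigs of other genes with at least 500 reads (3137 compared, 3136 for Prkar1a). The 12 points fall into 2 stages, and the r values are descriptions. Prkar2a was most like Txndc2 (r = 0.996), a thioredoxin domain gene of spermatids, Actg2 (0.996) and the histone variant gene H2al1n (0.996), which rose by 2.64, 2.57 and 2.99 in wt/wt. Gkap1 was most like Ropn1l (0.993), an RIIa-domain gene that fell by 0.71 in wt/wt, Hdgfl1 (0.992) and Mzt2 (0.991). Prkar1a ENSMUST00000049527 was most like the chaperonin gene Tcp1 (0.990), 1700010I14Rik (0.985) and Mxd4 (0.980). Prkaca was most like Morc2b (0.970), the meiotic cohesin gene Rec8 (0.960), which was also on the meiotic marker list, and the histone chaperone gene Nasp (0.949).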

How the data were processed

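The authors sequenced poly(A) RNA with a nanopore direct RNA kit, aligned reads to GENCODE transcripts of build GRCm38 (mm10) with minimap2 (version 2.20-r1061 per the labels), and deposited whole-number counts of reads per contig without normalization. Selection on poly(A), the authors' filter on tail calls and assignment among overlapping transcripts shape these counts. Deposited DESeq2 tables of fold changes and adjusted p-values gave the gene symbols and were otherwise not used. Positions came from GENCODE vM21 on the same build and upstream windows from RefSeq.

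Groups and replicate numbers came from the sample labels. A contig was tested if 2 or more libraries of any group held 10 or more of its reads. All 12 libraries, scaled with TMM, entered 1 quasi-likelihood fit with a term for each group in edgeR 4.0.16 (R 4.3.3). The script was tested on simulated data. Standard errors were derived from the log2 change and its F statistic (|change| over root F). Shares and log2 ratios of raw reads were compared by exact two-sided permutation over libraries, and intervals are 95% Wilson or exact Poisson. Alternatives were total counts, DESeq2 size factors, DESeq2 1.42.0, other filters, sums by gene, robust moderation, replicate blocks and leaving out each library. Scalings and the replicate block for the lists, and the lists without the shallowest library, were added after seeing the data. Likeness used log2 CPM with a prior count of 2.

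Deviations of same-numbered libraries from their group means correlated at 0.38 to 0.70 between genotypes in RS and at 0.25 to 0.52 between stages in dcat/dcat. Each pair was over 0.1, and the numbers were taken to pair those libraries. Different-numbered libraries of replicates 2 and 3 also passed 0.1, at 0.23 and 0.27 between genotypes in RS and 0.19 between stages in dcat/dcat. The correlations thus set replicate 1 apart but do not establish pairing by number between replicates 2 and 3. One same-numbered pair each fell short in the other comparisons (-0.09 for stages in wt/wt, 0.03 for genotypes in ES). The authors state that both stages were sorted from the same mice and that each sorting session held a mouse of each genotype. They do not state that same-numbered pools held the same mice or sessions. Blocked or paired values therefore stand beside the stage results of members, shares and ratios whose call they change.

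The members and lists were chosen with earlier results of these data known. All member contigs are named. From each pathway list, examples were drawn from the 5 contigs with the smallest q in wt/wt among those called in both genotypes with no overlap between stages. The likeness rule took the 3 highest r. The planned share of Prkacb among catalytic reads could not be computed.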

Additional observations from a re-analysis of the deposited data

How the results depend on the processing

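The rise of Prkar2a and the fall of Gkap1 between stages kept direction and call in both genotypes under all 15 alternatives each, at 2.22 to 3.22 and 2.03 to 3.00 for Prkar2a and at -2.06 to -1.24 and -2.04 to -1.25 for Gkap1. The number of member contigs called between stages ran from 2 to 5 in wt/wt (4 with all libraries, 2 without ES wt/wt replicate 2) and from 4 to 5 in dcat/dcat when single libraries were left out. With the replicate block, 5 members were called in wt/wt, where Prkaca changed by -0.77 (edgeR q 0.0155), and with the block within each stage by -0.72 (edgeR q 0.00888). The block changed no other member's call, and between genotypes it raised the calls over all contigs from 0 to 3 in RS and 1 in ES, or to 5 and 12 within each stage. Over all contigs, 4766 calls between stages in wt/wt became 7364 with total counts (26.5% of them higher, against 59.0%) and 2588 of 3719 tested with at least 10 reads in every library. In dcat/dcat, 4849 became 2562 under that filter, and total counts moved the higher share from 58.7% to 28.2%.

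No genotype or interaction value of a member was called under any alternative. In ES the genotype changes of Prkaca (-0.39 to -0.15), Prkar1a ENSMUST00000049527 (-0.69 to -0.16) and Prkar2a (-0.36 to -0.19) stayed negative, as did the interactions of Prkaca (-0.71 to -0.11) and ENSMUST00000049527 (-0.54 to -0.015), while those given next took both signs. For Prkar1a ENSMUST00000106677 in RS the genotype change was 0.00077 with DESeq2 size factors and 0.0012 with DESeq2, and in ES 0.0018 with at least 10 reads in every library. The interaction was 0.012 for this contig and 0.028 for Gkap1 with total counts, and 0.013 and 0.035 with that filter. Leaving out single libraries gave, in RS, -0.16 to 0.44 for Prkaca, -0.42 to 0.039 and -0.22 to 0.15 for the Prkar1a contigs, -0.35 to 0.24 for Prkar2a and -0.12 to 0.011 for Gkap1, and -0.16 to 0.029 for Gkap1 in ES. The interaction then ran from -0.19 to 0.18 for Prkar1a ENSMUST00000106677, -0.52 to 0.077 for Prkar2a and -0.13 to 0.069 for Gkap1. The genotype difference of the type II share ran from -1.66 to 2.51 points. The stage difference of the Prkar1a contig share was -6.83 points with the replicate block, in which signs of same-numbered pairs were flipped (exact permutation p = 0.03125), and ran from -8.81 to -4.22 points without single libraries. The cause of these differences was not tested. The log2 ratio has no log odds form, so that alternative was not run for it. Depth limits Prkaca most, at 12 to 18 reads per ES library.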
